A study of Mus musculus with 6 samples.

Results

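Redox defense and NADPH oxidase genes were examined in osteoclasts (OCs), the multinucleated cells that resorb bone, grown from mice with and without the lectin receptor DCIR. The list holds 37 genes, chosen by symbol from the NRF2 pathway, heme breakdown, the glutathione, thioredoxin and peroxiredoxin systems, superoxide and peroxide removal, and the oxidase that phagocytes use to make superoxide. All 37 were found among the 21492 genes of the deposited table, and all 37 were among the 14047 genes that were abundant enough to be tested. The Dcir-/- group had 3 libraries, numbered 21, 22 and 83, from mice that carry a deletion of Clec4a2, the gene for DCIR, and that had been backcrossed to C57BL/6J. The WT group had 3 libraries, numbered 3, 82 and 94, from C57BL/6J mice. These WT mice were bought from a supplier and housed beside the knockout, so genotype and origin of the mice cannot be told apart. OCs of both genotypes were induced from bone marrow cells with 20 ng/ml of M-CSF, which keeps the precursors alive and dividing, and with RANKL, the cytokine that drives OC formation, at 100 ng/ml. The sample labels give day 4 and 2 days of RANKL, whereas the methods of the study describe 4 days with RANKL. Whether each library stands for its own mouse or culture is stated in neither source. The p-values therefore describe the spread among these 6 libraries, and that spread may be technical.

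The libraries matched their genotypes at the deleted gene. Clec4a2 stood at 0.788, 1.15 and 0.496 CPM (the authors' adjusted counts, scaled so that the average library total is 1e6) in the Dcir-/- libraries, against 275, 239 and 289 CPM in the WT libraries. In all, 62 of 14047 genes passed an adjusted p of 0.05 in limma. Principal components of the tested genes set off WT library 3 along the first axis (53.5% of variance) and WT library 94 along the second (27.5%). OC markers were abundant in all libraries. The 10 listed ones, among them Ctsk, the collagen-degrading protease, summed to 23301.3, 17799.8 and 19113.6 CPM in Dcir-/- OCs, against 17386.7, 18172.5 and 19706.4 CPM in WT OCs.

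Cells meet reactive oxygen with a layered set of enzymes. Superoxide dismutases turn superoxide into hydrogen peroxide, which catalase, glutathione peroxidases and peroxiredoxins then remove, while glutathione and thioredoxin carry the electrons and are themselves restored with NADPH. The transcription factor NRF2, encoded by Nfe2l2, drives many of these genes through antioxidant response elements. KEAP1 holds NRF2 back by marking it for degradation, and the repressor BACH1 occupies the same DNA elements until heme binds it. In the OC lineage of the mouse, RANKL is known to raise reactive oxygen species, which act as messengers during differentiation, and loss of NRF2 is known to increase OC formation. The phagocyte NADPH oxidase is a membrane pair of proteins, encoded by Cyba and Cybb, that makes superoxide once cytosolic subunits such as those encoded by Ncf1 and Ncf4 join it.

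Because the antioxidant response element ties many of these genes together, its core was looked for in their promoters. The letters TGACNNNGC were searched on both strands of the 250 bases before each RefSeq transcription start (GRCm38.p6, the same assembly as mm10). Of the 32 genes with a promoter in the table used, 7 held the core (21.9%), against 11.5% of all 27025 genes with a promoter. Hmox1, Gclc, Gsr, Prdx6 and Ncf4 had no promoter there and were not searched. These 7 were Nfe2l2, Blvra, Gclm, Mgst1, Sod1, Prdx1 and Txnrd1. A match only describes the letters and is not a shown binding site. The 150 bases before the start are given for 5 of them, because they span the range of fold changes within this set: Mgst1, Prdx1, Gclm and Blvra had lower means in Dcir-/- OCs, whereas the mean of Txnrd1 was nearly equal. Each sequence reads 5′ to 3′ on the plus strand, which is the strand of the gene, and capitals mark the core, which reads from the minus strand in all 5. The starts are those of RefSeq transcripts. For Mgst1, Prdx1 and Txnrd1 the printed stretch lies wholly or partly inside the gene's GENCODE span, which begins further upstream, and Mgst1 and Txnrd1 have more than 1 RefSeq start.
Mgst1, chr6:138140377-138140526: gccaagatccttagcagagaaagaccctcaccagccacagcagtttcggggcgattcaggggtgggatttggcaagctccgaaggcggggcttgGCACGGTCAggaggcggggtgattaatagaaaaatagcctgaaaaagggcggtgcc
Prdx1, chr4:116685449-116685598: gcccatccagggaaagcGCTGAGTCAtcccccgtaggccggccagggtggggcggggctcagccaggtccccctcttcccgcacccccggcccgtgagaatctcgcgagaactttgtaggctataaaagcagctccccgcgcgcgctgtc
Gclm, chr3:122245407-122245556: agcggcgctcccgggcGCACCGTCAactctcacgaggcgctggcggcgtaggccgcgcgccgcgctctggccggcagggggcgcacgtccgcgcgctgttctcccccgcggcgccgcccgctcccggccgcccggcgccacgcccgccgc
Blvra, chr2:127070507-127070656: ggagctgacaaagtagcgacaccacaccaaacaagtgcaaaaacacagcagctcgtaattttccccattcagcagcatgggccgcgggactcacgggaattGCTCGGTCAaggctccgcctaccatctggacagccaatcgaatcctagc
Txnrd1, chr10:82859056-82859205: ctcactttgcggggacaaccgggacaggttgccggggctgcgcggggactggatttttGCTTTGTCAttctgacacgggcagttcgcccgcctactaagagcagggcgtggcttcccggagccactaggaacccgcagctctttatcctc

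Counted back from the base before the start as -1, the core ran from -56 to -48 in Mgst1, from -49 to -41 in Blvra, from -92 to -84 in a start window of Txnrd1, from -134 to -126 in Gclm and from -133 to -125 in Prdx1. In Prdx1 the same stretch also held TGACTCA, the letters bound by AP-1, the factor of FOS and JUN proteins that RANKL activates. That motif, read on both strands, was in 3 of the 32 promoters (9.38%), those of Gstp1, Prdx1 and Srxn1, against 5.16% of all genes. GAGGAA, a core bound by PU.1, a factor that myeloid cells and OC precursors need, was in 6 of the 32 (18.8%), against 25.9% of all genes.

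Most redox genes had a somewhat lower level in Dcir-/- OCs, but none passed the test. Mean log2 levels were lower in Dcir-/- OCs for 29 of 37 genes (78.4%), against 46.1% of all tested genes. The median log2 fold change was -0.15 over the 37 genes and 0.01 over all tested genes. Fold changes here are Dcir-/- over WT on the log2(CPM + 1) scale, which understates changes of low genes. The libraries of the genotypes did not overlap for 12 of the 37 genes, all 12 lower in Dcir-/- OCs, and 9.34% of all tested genes separated in that direction. None of the 37 separated in the higher direction, in which 10.5% of all tested genes did, so that 19.8% of all tested genes separated in either direction. At an unadjusted limma p of 0.05, 12 genes were lower and 0 higher, against 6.68% and 5.82% of all tested genes. With limma's p adjusted over all tested genes, 0 of 37 passed 0.05, a threshold that 0.441% of all tested genes passed (0.292% in the lower and 0.149% in the higher direction). In bulk RNA, fewer cells of a type and less RNA per cell cannot be told apart.

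Single libraries moved these counts only in part. Without WT library 3, 31 of the 37 genes had a lower mean in Dcir-/- OCs (50.4% of all tested genes), 13 did not overlap and were lower (15.3%), and 1 did not overlap and was higher (16.4%). Without WT library 94, the counts were 25 (43.1%) and 15 (16.1%). Without Dcir-/- library 21 they were 29 (46.7%) and 13 (12.1%). With 1 library left out of either group, 0 genes of the list passed the adjusted threshold. Summed over the 37 genes, the level was 5905.8, 6047.9 and 6131.6 CPM in Dcir-/- OCs, against 7424.8, 6375.6 and 6911.2 CPM in WT OCs, so that each Dcir-/- library lay below each WT library.

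**Figure D1:**
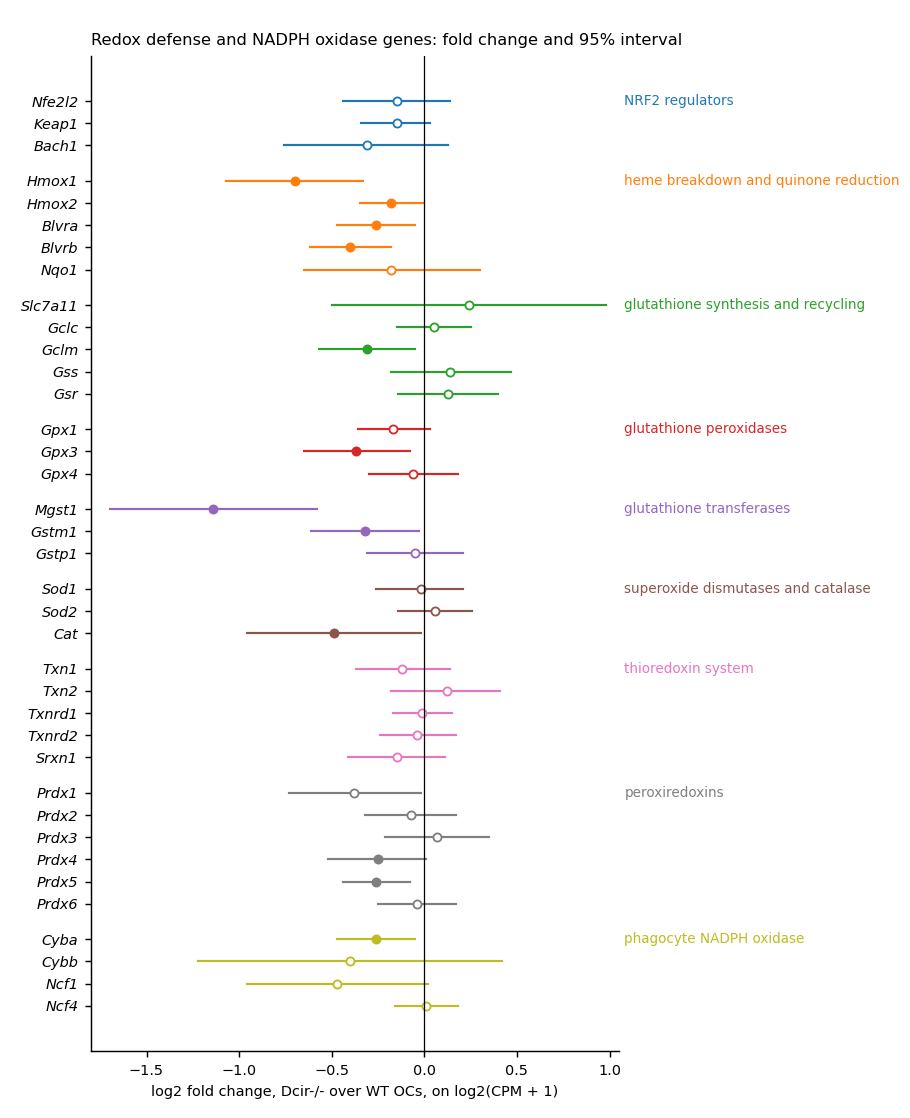
Log2 fold change of each of the 37 genes, Dcir-/- over WT OCs on the log2(CPM + 1) scale, with its 95% interval from limma (3 libraries per genotype). Colors mark the subsystems, filled points are genes whose genotypes do not overlap, and all 12 filled points lie left of 0, with Mgst1 at -1.14 and Hmox1 at -0.70 farthest out.

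Among the regulators of the NRF2 pathway, none of the 3 passed the test, and all 3 overlapped between the genotypes. Nfe2l2 had 113, 142 and 135 CPM in Dcir-/- OCs, against 171, 132 and 131 CPM in WT OCs. WT library 3 alone was high, and the other 5 libraries intermingled (log2 fold change -0.15, SE 0.13, 95% interval -0.44 to 0.14, adjusted p = 0.694 from limma). Without WT library 3 the fold change was -0.02. Keap1, the gene for the inhibitor of NRF2, showed a narrow spread, with 52.6, 54.3 and 57.9 CPM in Dcir-/- OCs, against 64.4, 57.8 and 61.5 CPM in WT OCs. Its highest Dcir-/- library, 83, only just reached its lowest WT library, 82 (log2 fold change -0.15, SE 0.08, interval -0.34 to 0.03, adjusted p = 0.503 from limma). An antisense transcript, Gm16754, overlaps exons of Keap1, and reads of the pair may have been shared. Bach1 had 68.5, 80.3 and 78.3 CPM in Dcir-/- OCs, against 132, 89.6 and 70.6 CPM in WT OCs. The high value again belonged to WT library 3, and WT library 94 lay among the Dcir-/- libraries. The log2 fold change of Bach1 was -0.31 (SE 0.20, adjusted p = 0.579 from limma) and -0.07 without WT library 3.

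Heme breakdown and quinone reduction formed the subsystem in which separation was most frequent. Means were lower in Dcir-/- OCs for all 5 genes, against 46.1% of all tested genes. There was no overlap for 4 of them, against 9.34% of all tested genes in the lower direction. The glutathione transferases came next with 2 of 3 genes, and the order of such small subsystems was not tested. Heme oxygenase opens heme into biliverdin, carbon monoxide and iron, biliverdin reductases make bilirubin, and NQO1 reduces quinones. Hmox1, the inducible heme oxygenase and a target of both NRF2 and BACH1, had 97.6, 134 and 134 CPM in Dcir-/- OCs, against 242, 169 and 186 CPM in WT OCs. The lowest WT library stayed above the highest Dcir-/- library, and the mean ± SD over 3 libraries was 122 ± 21.0 CPM for Dcir-/- and 199 ± 38.4 CPM for WT OCs, a difference of -38.8%. On the log2 scale this was -0.70 (SE 0.16, interval -1.07 to -0.33), with a limma p of 0.00218 before and 0.146 after adjustment. Leaving out single libraries moved it between -0.81 and -0.55, and the smallest adjusted p under any alternative was 0.0892, without WT library 3.

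Blvrb, a biliverdin and flavin reductase, had 132, 141 and 155 CPM in Dcir-/- OCs, against 211, 173 and 183 CPM in WT OCs. Its genotypes were fully separate, with WT library 3 highest (log2 fold change -0.40, SE 0.10, adjusted p = 0.158 from limma). Blvra, the main biliverdin reductase of the adult, had 77.3, 79.8 and 79.1 CPM in Dcir-/- OCs, against 105, 84.2 and 96.0 CPM in WT OCs. The SD of Blvra was 1.30 CPM over the Dcir-/- libraries, against 10.5 CPM over the WT libraries (log2 fold change -0.26, SE 0.09, adjusted p = 0.294 from limma). Hmox2, the constitutive heme oxygenase, differed less. It had 129, 123 and 125 CPM in Dcir-/- OCs, against 142, 132 and 152 CPM in WT OCs, with no overlap (log2 fold change -0.18, SE 0.08, adjusted p = 0.397 from limma), although exons of Cdip1 on the other strand overlap it. Nqo1, often used as a readout of NRF2, was low in all 6 libraries and did overlap, between 6.15 and 9.29 CPM in Dcir-/- OCs and between 7.20 and 12.1 CPM in WT OCs (log2 fold change -0.18, SE 0.21).

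Glutathione synthesis behaved differently from the heme and quinone genes in its means, which were higher in Dcir-/- OCs for 4 of 5 genes without any of the 4 separating. The difference between the subsystems was not tested. The gene with a lower mean was Gclm, the regulatory subunit of glutamate cysteine ligase, which sets the rate of glutathione synthesis. Gclm had 86.2, 96.6 and 91.5 CPM in Dcir-/- OCs, against 136, 103 and 104 CPM in WT OCs. The genotypes did not overlap, with WT library 3 far above the rest (log2 fold change -0.31, SE 0.11, adjusted p = 0.325 from limma, and -0.18 without WT library 3). Gm6061 and Gm17494 overlap its exons. Gclc, the catalytic subunit of the same enzyme, was nearly level, between 42.8 and 46.6 CPM in Dcir-/- OCs and between 39.7 and 45.8 CPM in WT OCs (log2 fold change 0.05, interval -0.15 to 0.25). Gsr, which regenerates reduced glutathione with NADPH, was the most abundant gene of this subsystem per length of exon. It had 203, 170 and 157 CPM in Dcir-/- OCs, against 144, 160 and 180 CPM in WT OCs, fully intermingled (log2 fold change 0.13, SE 0.12, adjusted p = 0.722 from limma). Gss, which adds the glycine of glutathione, ranged from 70.0 to 80.0 CPM in Dcir-/- OCs and from 53.6 to 80.5 CPM in WT OCs (log2 fold change 0.14). Slc7a11, which imports cystine for glutathione, ranged from 9.02 to 15.0 CPM in Dcir-/- OCs and from 7.02 to 18.7 CPM in WT OCs, and its log2 fold change of 0.24 had the widest interval among the 5, from -0.50 to 0.98.

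The glutathione peroxidases spanned a wide range of levels. Gpx1, the cytosolic enzyme that removes hydrogen peroxide, had 428, 431 and 463 CPM in Dcir-/- OCs, against 484, 462 and 544 CPM in WT OCs. Dcir-/- library 83 and WT library 82 were nearly equal, and so the genotypes overlapped (log2 fold change -0.17, SE 0.09, adjusted p = 0.479 from limma). Gpx3, the secreted plasma form, was scarce and separate. It had 4.57, 5.54 and 5.94 CPM in Dcir-/- OCs, against 7.33, 7.24 and 6.90 CPM in WT OCs. The WT libraries were closer to each other than the Dcir-/- libraries (log2 fold change -0.37, SE 0.12, adjusted p = 0.285 from limma), and with a pseudocount of 5 CPM the fold change was -0.23. Gpx4, which repairs oxidized membrane lipids and guards against ferroptosis, ranged from 243 to 274 CPM in Dcir-/- OCs and from 242 to 309 CPM in WT OCs (log2 fold change -0.06, SE 0.10).

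Mgst1 had the lowest log2 fold change of the list. It encodes a membrane-bound glutathione transferase that also reduces lipid peroxides. Its level was 11.2, 18.4 and 18.4 CPM in Dcir-/- OCs, against 50.5, 30.2 and 29.1 CPM in WT OCs. The lowest WT value was well above the highest Dcir-/- value, and the mean in Dcir-/- OCs was 0.436 of the mean in WT OCs. The log2 fold change was -1.14 (SE 0.24, interval -1.70 to -0.58), with a limma p of 0.00144 before and 0.125 after adjustment. Without WT library 3 it was -0.89, with the smallest adjusted p that any gene of the list reached under any alternative, 0.0559. Mgst1 lies on chromosome 6 of mm10 from 138140316 to 138156755 on the plus strand, 15.0 Mb beyond Clec4a2, and was the sole gene of the list on that chromosome. Gstm1, a cytosolic transferase of the mu class, had 82.4, 84.1 and 92.3 CPM in Dcir-/- OCs, against 133, 96.0 and 98.0 CPM in WT OCs. Here the separation was small apart from WT library 3 (log2 fold change -0.32, SE 0.13, adjusted p = 0.355 from limma, and -0.17 without WT library 3), and reads could be split with close paralogs. Gstp1, the pi class transferase, ranged from 43.6 to 46.7 CPM in Dcir-/- OCs and from 40.6 to 55.0 CPM in WT OCs (log2 fold change -0.05, SE 0.11).

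**Figure D2:**
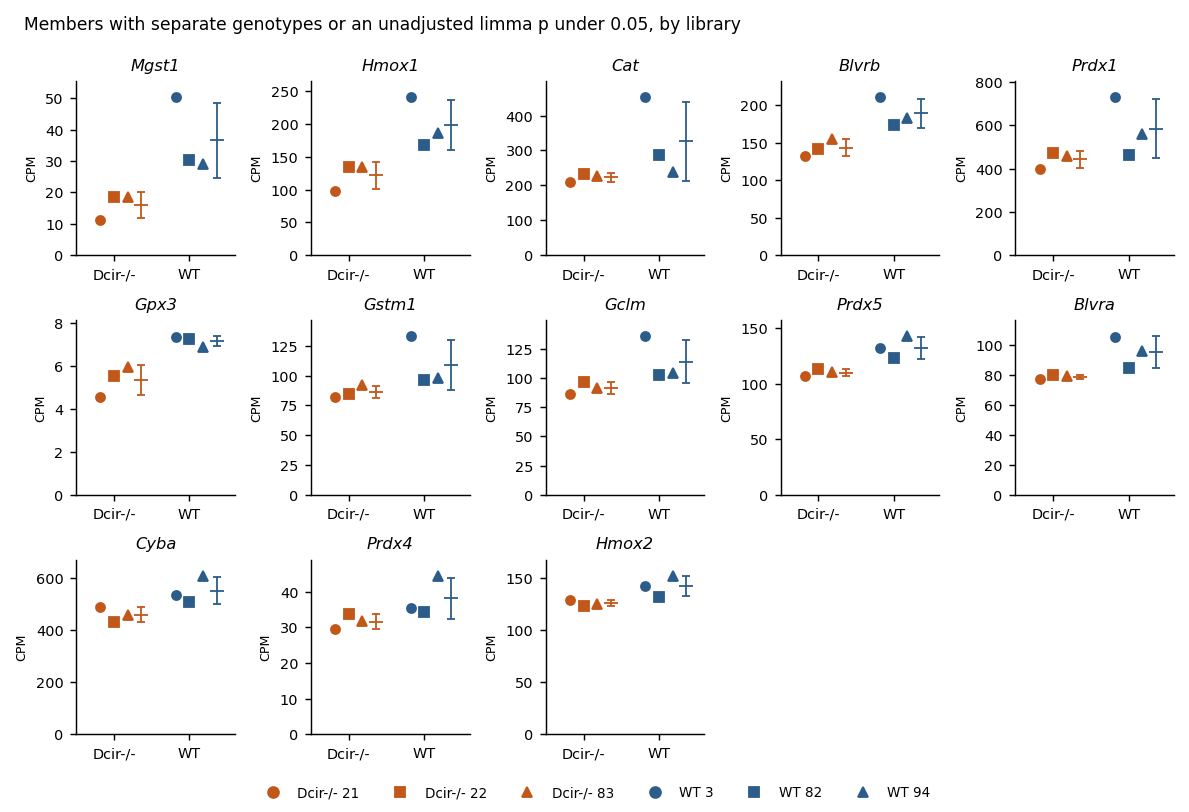
Level in CPM of the 13 genes whose genotypes do not overlap or whose unadjusted limma p is under 0.05, in each Dcir-/- library (left) and WT library (right), with mean and SD beside the points (n = 3 each). All axes start at 0, and WT library 3 is the highest point for Mgst1 at 50.5 CPM and Hmox1 at 242 CPM, whereas WT library 94 is the highest for Prdx5 at 143 CPM.

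Among the enzymes that handle superoxide and peroxide directly, catalase separated between the genotypes without passing the test, and the dismutases overlapped. Cat, the peroxisomal catalase, had 210, 233 and 228 CPM in Dcir-/- OCs, against 454, 287 and 237 CPM in WT OCs. The Dcir-/- libraries were tight and the WT libraries spread widely, with WT library 94 just above the Dcir-/- libraries (mean ± SD over 3 libraries, 223 ± 12.2 CPM for Dcir-/- and 326 ± 114 CPM for WT OCs). On the log2 scale Cat differed by -0.49 (SE 0.20, adjusted p = 0.374 from limma), or by -0.22 without WT library 3. Sod1, the cytosolic copper and zinc dismutase, ranged from 296 to 320 CPM in Dcir-/- OCs and from 275 to 358 CPM in WT OCs (log2 fold change -0.02, interval -0.26 to 0.21). Sod2, the mitochondrial manganese enzyme, ranged from 190 to 214 CPM in Dcir-/- OCs and from 176 to 208 CPM in WT OCs (log2 fold change 0.06, interval -0.14 to 0.26).

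In the thioredoxin system the genotypes overlapped for all 5 genes. Txn1, the cytosolic thioredoxin that reduces protein disulfides, had 252, 244 and 244 CPM in Dcir-/- OCs, against 234, 256 and 319 CPM in WT OCs. WT library 94 was high, and the others intermingled (log2 fold change -0.12, SE 0.11, adjusted p = 0.729 from limma). Txnrd1, the cytosolic thioredoxin reductase, ranged from 318 to 333 CPM in Dcir-/- OCs and from 323 to 345 CPM in WT OCs, with a log2 fold change of -0.01 and an interval from -0.17 to 0.15. Its promoter holds the same core letters as those of Mgst1 and Gclm. The mitochondrial partners Txn2 and Txnrd2 were at 0.12 and -0.04 on the same scale. Srxn1, the sulfiredoxin that restores overoxidized peroxiredoxins, ranged from 108 to 130 CPM in Dcir-/- OCs and from 121 to 156 CPM in WT OCs (log2 fold change -0.15, SE 0.11).

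Peroxiredoxins reduce peroxides at a reactive cysteine, and 2 of the 6 genes separated between the genotypes. Both were lower in Dcir-/- OCs, a direction in which 9.34% of all tested genes separated. Prdx1, a cytosolic member with the core letters in its promoter, had 398, 473 and 458 CPM in Dcir-/- OCs, against 731, 462 and 559 CPM in WT OCs. WT library 82 fell below Dcir-/- library 22, so the genotypes overlapped although the unadjusted limma p was 0.0407 (log2 fold change -0.38, SE 0.16, adjusted p = 0.374 from limma). Without WT library 3 its fold change was -0.20. Prdx5, found in mitochondria, peroxisomes and cytosol, had 107, 113 and 111 CPM in Dcir-/- OCs, against 132, 123 and 143 CPM in WT OCs. Each WT library lay above each Dcir-/- library (log2 fold change -0.26, SE 0.08, adjusted p = 0.239 from limma), and exons of Trmt112 on the other strand overlap it. Prdx4, the peroxiredoxin of the secretory pathway, had 29.6, 33.7 and 31.7 CPM in Dcir-/- OCs, against 35.4, 34.2 and 44.5 CPM in WT OCs. The gap of Prdx4 was narrow, between Dcir-/- library 22 and WT library 82 (log2 fold change -0.25, SE 0.12, adjusted p = 0.427 from limma). The cytosolic Prdx2, the mitochondrial Prdx3 and Prdx6 all overlapped, with log2 fold changes of -0.07, 0.07 and -0.04. They ranged from 262 to 274, from 133 to 156 and from 112 to 122 CPM in Dcir-/- OCs, and from 249 to 331, from 113 to 155 and from 113 to 136 CPM in WT OCs.

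The 4 oxidase genes gave 1 separate gene and 3 that overlapped. Cyba encodes p22phox, the small membrane subunit that other NADPH oxidases share, and had the highest level per length of the list. It had 486, 432 and 458 CPM in Dcir-/- OCs, against 534, 506 and 608 CPM in WT OCs. The genotypes did not overlap (log2 fold change -0.26, SE 0.09, interval -0.47 to -0.05, adjusted p = 0.306 from limma), and leaving out single libraries moved the fold change between -0.31 and -0.18. Cybb, the catalytic subunit gp91phox that passes electrons from NADPH to oxygen, had 202, 310 and 297 CPM in Dcir-/- OCs, against 646, 315 and 210 CPM in WT OCs. WT library 3 held the highest value and WT library 94 nearly the lowest, and the SD was 58.9 CPM in Dcir-/- OCs, against 228 CPM in WT OCs. Cybb had a log2 fold change of -0.40 (SE 0.36, interval -1.22 to 0.42, adjusted p = 0.712 from limma), and without WT library 3 it was 0.04.

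Ncf1, which encodes p47phox, the subunit that brings the cytosolic complex to the membrane when phosphorylated, had 87.3, 116 and 109 CPM in Dcir-/- OCs, against 205, 135 and 107 CPM in WT OCs. Libraries 22 and 83 of Dcir-/- OCs lay above WT library 94, and WT library 3 stood highest (log2 fold change -0.47, SE 0.22, adjusted p = 0.426 from limma, and -0.21 without WT library 3). Exons of Gtf2ird2 overlap Ncf1 on the other strand. Ncf4, which encodes the phosphoinositide-binding subunit p40phox, was level across the libraries. It had 404, 371 and 405 CPM in Dcir-/- OCs, against 374, 387 and 407 CPM in WT OCs, with a log2 fold change of 0.01 and an interval from -0.16 to 0.18.

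**Figure D3:**
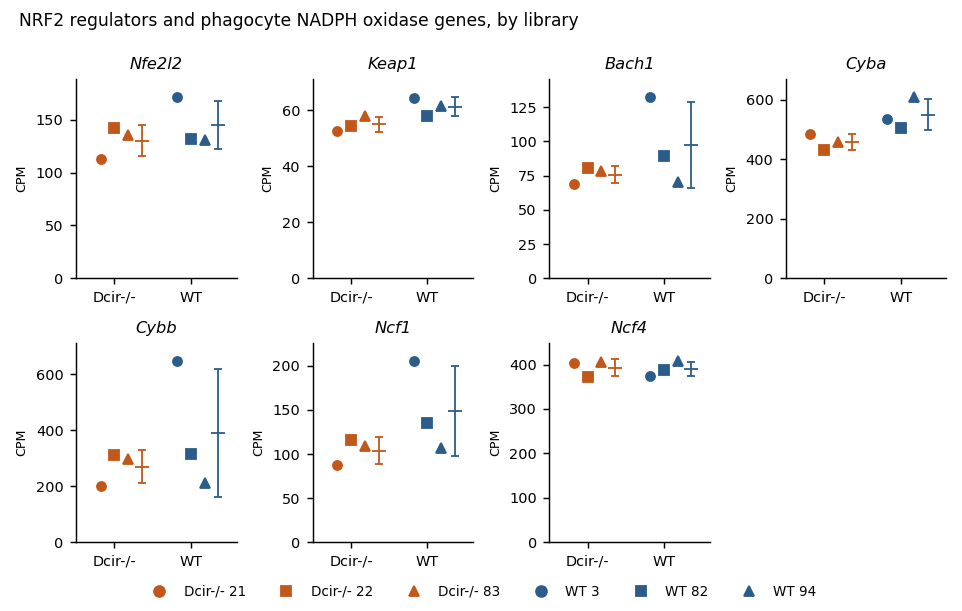
Level in CPM of the 3 NRF2 regulators and the 4 oxidase genes in each Dcir-/- library (left) and WT library (right), with mean and SD beside the points (n = 3 each) and all axes from 0. WT library 3 is the highest point for Bach1 at 132 CPM, Cybb at 646 CPM and Ncf1 at 205 CPM, while Ncf4 lies between 371 and 407 CPM in all libraries.

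Between genes, levels were compared per kilobase of exon, as the mean over the 6 libraries. The length covered all annotated exons of a gene together, not its main transcript, so the order depends on the annotation. Cyba led with 485 CPM per kb, followed by Gpx1 with 325, Txn1 with 246, Ncf4 with 194, Prdx1 with 169 and Gpx4 with 152 CPM per kb. Within this list, the most abundant antioxidant transcripts were those of glutathione- and thioredoxin-dependent peroxide removal. Of the oxidase genes, Cyba and Ncf4 were among the leading genes, whereas Cybb stood at 56.8 and Ncf1 at 34.5 CPM per kb. Hmox1 was ninth of the 37 by rank, at 91.7 CPM per kb, above its constitutive partner Hmox2 at 60.4 CPM per kb. Among the lowest were Mgst1 with 13.1, Nqo1 with 5.31, Gpx3 with 3.45 and Slc7a11 with 0.875 CPM per kb. The 2 subunits of glutamate cysteine ligase were close, with 16.3 for Gclm and 11.6 CPM per kb for Gclc.

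**Figure D4:**
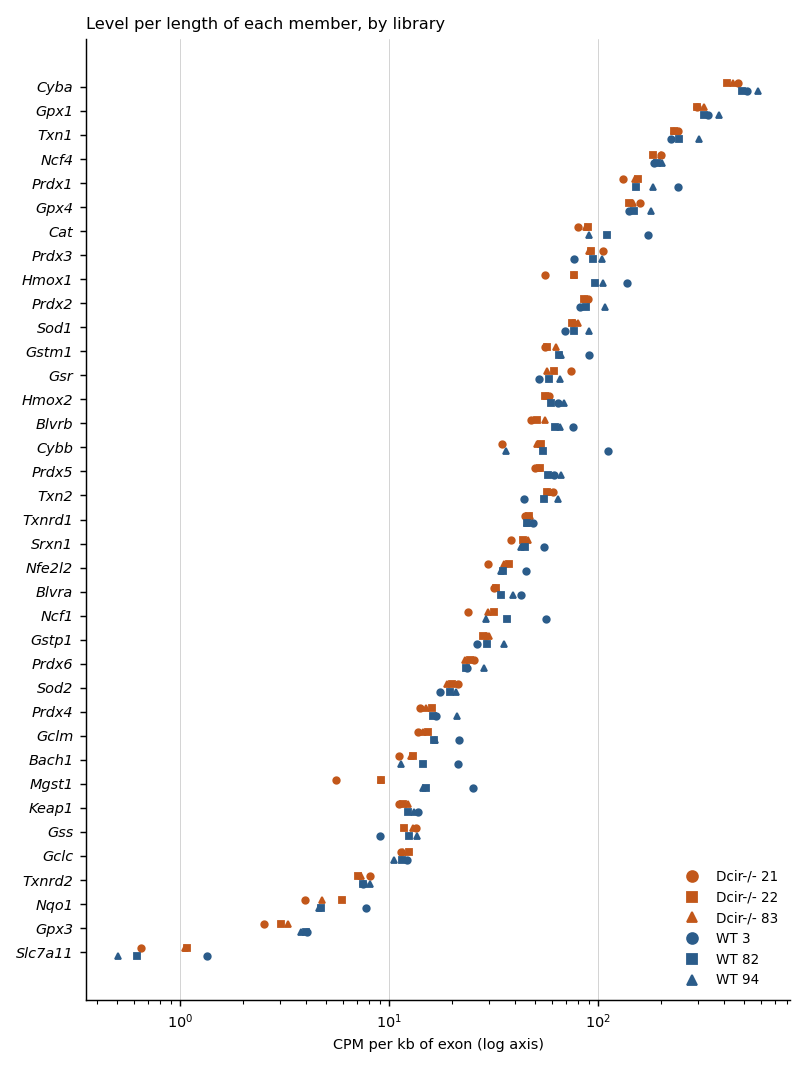
CPM per kilobase of exon of the 37 genes in each library on a log axis, ordered by the mean over the libraries, with Dcir-/- libraries in the upper and WT libraries in the lower line of each gene. Levels run from 0.875 CPM per kb on average for Slc7a11 to 485 CPM per kb for Cyba, and for Mgst1 and Hmox1 the libraries of the genotypes lie apart.

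Single libraries had a marked pattern across the list. WT library 3 was the highest of the 6 for 18 genes (48.6%, against 24.8% of all tested genes), and Dcir-/- library 21 was the lowest for 20 genes (54.1%, against 17.2%). Both held at once for 17 genes (45.9%, against 9.87%). The high genes of WT library 3 included all 3 regulators, 4 of the 5 heme and quinone genes, and Cybb and Ncf1. The same library was the lowest for 10 genes, Gss, Gsr, Gpx4, Gstp1, Sod1, Sod2, Txn1, Txn2, Prdx2 and Prdx3 (27.0%, against 31.2%), so that it was at either end for 28 of the 37 (75.7%, against 56.0%). WT library 94 was the highest for 15 genes (40.5%, against 28.8%) and the lowest for 2 (5.41%, against 25.4%). With each library left out in turn, the log2 fold change ranged from -1.27 to -0.89 for Mgst1, from -0.81 to -0.55 for Hmox1 and from -0.46 to -0.32 for Blvrb, whereas it ranged from -0.69 to -0.22 for Cat, from -0.68 to -0.21 for Ncf1 and from -0.77 to 0.04 for Cybb.

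**Figure D5:**
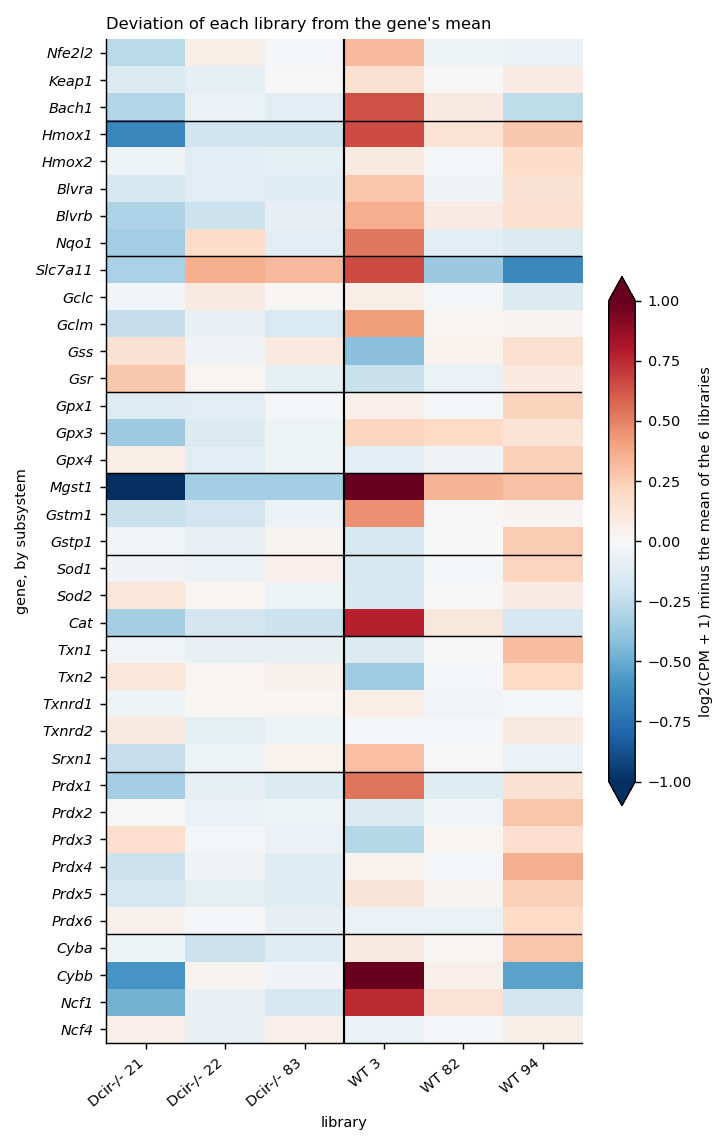
Deviation of each library from the mean of the 6 libraries, in log2(CPM + 1), for the 37 genes in the order of the subsystems, with Dcir-/- libraries left and WT libraries right of the vertical line. Red is above and blue below the mean, with colors held at 1 and -1, and the column of WT library 3 is red for 18 genes in which it is the highest, while that of Dcir-/- library 21 is blue for the 20 in which it is the lowest.

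Markers of other myeloid cells moved between the genotypes beside these genes, and their part in the values above was not tested. Of 10 macrophage markers, all 10 had a lower mean in Dcir-/- OCs, against 46.1% of all tested genes. The test was passed in that direction by 2 of them, against 0.292% of all tested genes. These were C1qa (adjusted p = 0.0171 from limma) and C1qc (adjusted p = 0.0452 from limma), which encode chains of complement C1q. Cd163, Cd68 and Csf1r were nearly level, with log2 fold changes of -0.06, -0.01 and -0.01. The list's median log2 fold change was -1.07, and its sum was 4111.1, 3993.1 and 4304.6 CPM in Dcir-/- OCs, against 5880.0, 4722.4 and 4360.8 CPM in WT OCs. WT library 3 was the highest and Dcir-/- library 21 the lowest for 8 of the 10 markers each. Adgre1, the gene for the macrophage antigen F4/80, had 217, 301 and 308 CPM in Dcir-/- OCs, against 777, 417 and 282 CPM in WT OCs. The order of its libraries was close to that of Cybb, with WT library 3 highest and WT library 94 below Dcir-/- libraries 22 and 83. Mertk had the same order as Adgre1. In C1qa, C1qb, C1qc, Mrc1 and Fcgr1, by contrast, WT library 94 lay above each Dcir-/- library. For Mrc1 it had 122 CPM, against 59.6, 88.9 and 77.3 CPM in Dcir-/- OCs.

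Neutrophil markers were lower in mean for 9 of 9 tested, against 46.1% of all tested genes. The test was passed by 4 of them, against 0.292% of all tested genes in the lower direction (Ngp, S100a8, S100a9 and Ltf, adjusted p of 0.0388, 0.0395, 0.0440 and 0.0452 from limma). Their sum was 439, 323 and 350 CPM in Dcir-/- OCs, against 710, 601 and 752 CPM in WT OCs, and the median of their log2 fold changes was -0.87. Ly6g was near 0, at most 0.312 CPM in Dcir-/- libraries, against 0.842 CPM in WT libraries. Monocyte markers had a median of -0.49, with sums between 66.7 and 89.4 CPM in Dcir-/- OCs and between 83.1 and 127 CPM in WT OCs. Megakaryocyte markers had a median of -0.56, with Pf4 lower (adjusted p = 0.00223 from limma) and sums between 68.9 and 75.3 CPM in Dcir-/- OCs and between 78.7 and 154 CPM in WT OCs. None of the dendritic, B cell, mast cell and basophil, T and NK cell or stromal markers tested passed. Their sums ranged over 93.2 to 126, 87.1 to 111, 4.30 to 4.81, 7.37 to 7.52 and 9.69 to 10.7 CPM in Dcir-/- OCs and over 81.5 to 169, 134 to 146, 5.19 to 6.81, 8.73 to 9.04 and 12.3 to 13.5 CPM in WT OCs. Of the erythroid markers, whose cells are rich in peroxiredoxins and catalase, Alas2, Klf1 and Epor summed to at most 0.701 CPM in Dcir-/- libraries, against 0.611 CPM in WT libraries, and the others were not analysed here. OC markers had higher means in Dcir-/- OCs for 10 of 10, against 7576 of 14047 tested genes, with a median log2 fold change of 0.15 and 0 past the test. Of these 10, 5 did not overlap and were higher, against 10.5% of all tested genes. At an unadjusted limma p of 0.05, 4 were higher, against 5.82% of all tested genes.

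Other genes of the same pathways were taken from a separate list of 81, of which 76 were in the table and 68 were tested. With adjustment over all genes 0 passed, 9 of the 68 were lower and 1 higher at an unadjusted limma p of 0.05 (6.68% and 5.82% of all tested genes), and the median log2 fold change was -0.06. Libraries did not overlap for 15 lower and 3 higher genes (9.34% and 10.5% of all tested genes). Selenop, the selenium transport protein, had 127, 209 and 202 CPM in Dcir-/- OCs, against 848, 460 and 372 CPM in WT OCs. All WT libraries lay above all Dcir-/- libraries (log2 fold change -1.58, SE 0.30, adjusted p = 0.0851 from limma). Selenop passed when WT library 3 was left out (-1.24, adjusted p = 0.0113 from limma) and when WT library 94 was left out (-1.83, adjusted p = 0.0384 from limma). Without WT library 3, Gstt1, a theta class transferase gene, also passed (-0.72, adjusted p = 0.0484 from limma). With all libraries its genotypes overlapped (log2 fold change -0.41, SE 0.25, adjusted p = 0.571 from limma). Gstt1 had 15.2, 17.4 and 19.6 CPM in Dcir-/- OCs, against 14.8, 25.3 and 33.5 CPM in WT OCs. The library left out, WT library 3, was thus its lowest.

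Selenow, a small selenoprotein gene, had 5.58, 7.91 and 7.70 CPM in Dcir-/- OCs, against 15.9, 11.4 and 12.7 CPM in WT OCs (log2 fold change -0.83, SE 0.17, adjusted p = 0.103 from limma). Glrx, the glutaredoxin that removes glutathione from proteins, had 16.2, 18.0 and 15.6 CPM in Dcir-/- OCs, against 27.5, 22.0 and 22.1 CPM in WT OCs (log2 fold change -0.49, SE 0.12, adjusted p = 0.154 from limma). Both genes were separate between the genotypes, with WT library 3 highest. Nfe2, a relative of NRF2 known from blood cells, had 2.13, 1.23 and 1.18 CPM in Dcir-/- OCs, against 3.37, 2.90 and 2.71 CPM in WT OCs (log2 fold change -0.69, SE 0.17, adjusted p = 0.171 from limma). The 1 gene that was higher at an unadjusted limma p of 0.05 was Nfe2l1, which encodes NRF1, another relative of NRF2, known for driving proteasome genes. It was named after its values were seen, and had 281, 293 and 283 CPM in Dcir-/- OCs, against 226, 251 and 233 CPM in WT OCs (log2 fold change 0.27, SE 0.07, adjusted p = 0.190 from limma), so that the gene lay opposite in direction to most of the list. By class, and against 46.1% of all tested genes, 7 of 9 genes of NADPH supply had a lower mean in Dcir-/- OCs (median -0.10), as did 5 of 7 other oxidase subunits and regulators (median -0.12), 12 of 19 other glutathione enzymes (median -0.06), 8 of 10 other thiol and methionine reductases (median -0.05) and 10 of 14 other antioxidant proteins (median -0.07), while 3 of 9 NRF2 partners did (median 0.09).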

How the data were processed

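The study sequenced stranded poly(A) libraries of 6 OC samples. According to the methods and labels, the authors used Trim Galore 0.6.6 for trimming and HISAT2 2.2.0 for alignment to mm10, counted reads on exons with Rsubread and compared the genotypes with edgeR. For the strand setting and the annotation release, nothing is given in the sources used. Overlapping, antisense and paralogous genes may therefore share reads. The sample columns that the authors deposited hold counts adjusted to a common library size, a signal that is mostly not whole, with totals of 33035020 to 34068308.6 per library; the form of the adjustment was inferred from the values. The raw depth is therefore unknown, and precision was judged by the spread between libraries. Further columns deposited by the authors hold the log2 ratio of WT over Dcir-/- and the adjusted p-value (FDR) of their own comparison, and neither was used.

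For CPM, values were divided by the mean total of the 6 columns, so that 1 CPM equals 33.6 adjusted counts. Genes with at least 1 CPM in 3 libraries were fitted on log2(CPM + 1) by limma 3.58.1 (R 4.3.3, with a trend), with genotype as the only term, and p-values were adjusted by Benjamini-Hochberg over all 14047 genes. A count model was not used because the values are not counts. The test was first tried on simulated data with independent noise, no deviating library and changes larger than most reported here. That trial therefore does not show how well changes of the size seen in this list are found. Exon lengths and positions came from GENCODE M21 on GRCm38 (mm10), which matched 20904 of 21492 gene identifiers and all 37 of the list. The second of 2 rows of Nnt, the lower one, was left out. The genes of the list, the lists of other genes and the alternatives were chosen with earlier results of these data known. Values in every library were given for genes that did not overlap or had an unadjusted p under 0.05, for the most abundant gene per length in each subsystem, and for the regulators and oxidase genes. Up to 4 genes of each other list, by smallest p, were named as well, and some others after their values were seen. Alternatives covered the filter, the scaling, the pseudocount, the limma fit, the threshold and each library left out in turn. Results of some genes of the other lists are not reported here.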

Additional observations from a re-analysis of the deposited data

How the results depend on the processing

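No paired analysis was possible because the genotypes share no library numbers. Of the 37 genes, 0 passed under any of the alternatives, a threshold of 0.10 included. The median log2 fold change of the 37 lay between -0.17 and -0.14 under other filters, scalings, pseudocounts and fits, and between -0.21 and -0.12 with single libraries left out. Genes with a lower mean numbered 25 to 31, and genes without overlap 13 to 16 (12 with all libraries), with single libraries left out. Separation also became more frequent among all tested genes with fewer libraries. With all libraries, 9.34% separated lower and 10.5% higher. These shares were 15.3% and 16.4% without WT library 3, and 16.1% and 19.3% without WT library 94. Without Dcir-/- library 21 they were 12.1% and 13.5%. Lower means were held by 50.4%, 43.1% and 46.7% of all tested genes in these 3 settings. The 62 calls over all genes moved to 39 with array weights, 33 with a filter of 5 CPM, 41 with a pseudocount of 5 CPM and 112 at a threshold of 0.10, and ranged from 2 to 126 with single libraries left out (2 without Dcir-/- library 22, 126 without WT library 3). Of the other redox genes, 1 passed at a threshold of 0.10, and 0 to 2 with single libraries left out. Among 555 fold changes of single genes under alternatives, 20 had the other sign, all with a library left out, in 17 genes whose genotypes overlapped. Their ranges were -0.77 to 0.04 for Cybb, -0.02 to 0.63 for Slc7a11, -0.31 to 0.04 for Nqo1, -0.03 to 0.26 for Gss, -0.01 to 0.10 for Gclc, -0.13 to 0.05 for Gpx4, -0.15 to 0.06 for Gstp1, -0.11 to 0.08 for Sod1, -0.01 to 0.11 for Sod2, -0.21 to 0.01 for Txn1, -0.03 to 0.25 for Txn2, -0.03 to 0.02 for Txnrd1, -0.09 to 0.00 for Txnrd2 (just above 0 before rounding, without Dcir-/- library 22), -0.16 to 0.04 for Prdx2, -0.05 to 0.17 for Prdx3, -0.09 to 0.05 for Prdx6 and -0.02 to 0.05 for Ncf4. The causes of these moves were not tested. The median of all genes stayed between -0.002 and 0.026 under all settings. With 3 libraries per genotype, low genes such as Gpx3 and Nqo1 are the least certain.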
